A study of Mus musculus with 10 samples.

Results

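The 8 genes described here are Il2ra, Il2rb, Il2rg, Jak3, Stat5a, Stat5b, Socs1 and Cish, which encode the interleukin-2 (IL-2) receptor chains, its signalling kinase, its 2 STAT5 proteins and 2 of its feedback inhibitors. They were chosen by name, and every accessible region (peak) that lay in the body of a gene or within 10 kb of it on GRCm38 was taken as a member. This gave 73 of the 97385 peaks of the table, of which 3 lie near both Stat5a and Stat5b. All 73 held enough counts to be tested, as did 97109 peaks in all.

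Accessibility was measured by ATAC-seq, in which the Tn5 transposase cuts and tags open DNA, in regulatory T cells (Tregs) sorted as CD4+Foxp3-YFP+TCRb+ cells from 2 tissues, spleen and lung, of mice aged 10 days. In every group, controls included, a Cre recombinase joined to yellow fluorescent protein was expressed from Foxp3, so that deletion was limited to cells that express Foxp3. Vps34-deficient mice were Foxp3Cre Pik3c3 fl/fl, which lack the lipid kinase Vps34 in these cells, and control mice were Foxp3Cre with Pik3c3 +/+ or +/fl, with no label that tells the 2 control genotypes apart. There were 2 control and 4 Vps34-deficient libraries of spleen, and 2 of each of lung. The labels do not say whether each library came from its own animal, so p-values measure the spread between these libraries, which may in part be technical.

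IL-2 binds a receptor made of an alpha chain (CD25, Il2ra), which gives high affinity and marks Tregs, and of beta (Il2rb) and common gamma (Il2rg) chains, which carry the signal. The kinase JAK3 sits on the gamma chain and JAK1 on the beta chain, and together they phosphorylate STAT5A and STAT5B, which bind DNA as dimers and maintain Foxp3 expression and Treg survival. Tregs make little IL-2 themselves and take it from other T cells, and the STAT5 targets Socs1 and Cish encode SH2 proteins that damp the same receptor.

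Counts per library totalled 9405823 to 22439699, and values are given as CPM, counts scaled to the library total. Member peaks held a median of 135.5 counts per library, against 48.9 over all tested peaks. Both lung groups had a wide spread at these genes. Lung control replicate 2 was above replicate 1 at 69 of the 73 member peaks (94.5%) and for 8 of 8 genes, whereas it was above at 47.6% of all peaks. Among the Vps34-deficient lung libraries, replicate 1 was above replicate 2 for 8 of 8 genes. The chromosome Y signal was 56.9 to 67.6 CPM in 5 libraries, among them lung control replicate 1 and lung Vps34-deficient replicate 2, and 7.03 to 21.4 CPM in the other 5. In both lung groups the library with the higher signal was thus the lower one for 8 of 8 genes. With this split as a covariate, all 21 calls made for member peaks and genes were kept. As the split divides every group evenly, this covariate could shift the effects little. The part of the split in the spread was not tested. The summed level of 8 Treg identity genes (such as Foxp3, Ctla4 and Ikzf2) had the same order, with 1439.6 and 1831 CPM in lung controls, and 1539 and 1306 CPM in lung Tregs without Vps34. In bulk libraries, a smaller share of cells in which a region is open cannot be told apart from less opening in each cell.

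Read per kb of peak, so that genes with more or wider peaks can be compared, Socs1 was the most accessible of the 8 genes. Its mean over the 10 libraries was 52.3 CPM per kb, and its group means (44.5 to 56.5) lay above those of every other member. Cish (37.4) and Stat5a (36.4) followed, then Il2rb (32.4), Stat5b (30.7), Jak3 (29.3), Il2rg (27.0) and Il2ra (24.3). Below Socs1, the ranges of the 4 group means overlapped between neighbours in this order, for example 34.7 to 39.8 CPM per kb for Cish and 35.1 to 39.2 for Stat5a, except that those of Stat5a lay just above those of Il2rb (24.9 to 34.9).

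To ask whether loss of Vps34 or the tissue altered a locus as a whole, counts were summed over the peaks of each gene and tested among 34177 genes. Across the 8 genes, no summed level passed the test for genotype in spleen or in lung. The summed level of Socs1 was lower in lung than in spleen, as was that of Jak3, whose call held under 4 of 12 other settings, against 11 of 12 for Socs1. Two-way differences that did not pass were a lower Il2rb sum in lung (-0.26, adjusted p = 0.0568) and a higher Stat5b sum (0.19, adjusted p = 0.0734, edgeR quasi-likelihood test). Each of these was called under some other settings.

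**Figure D1:**
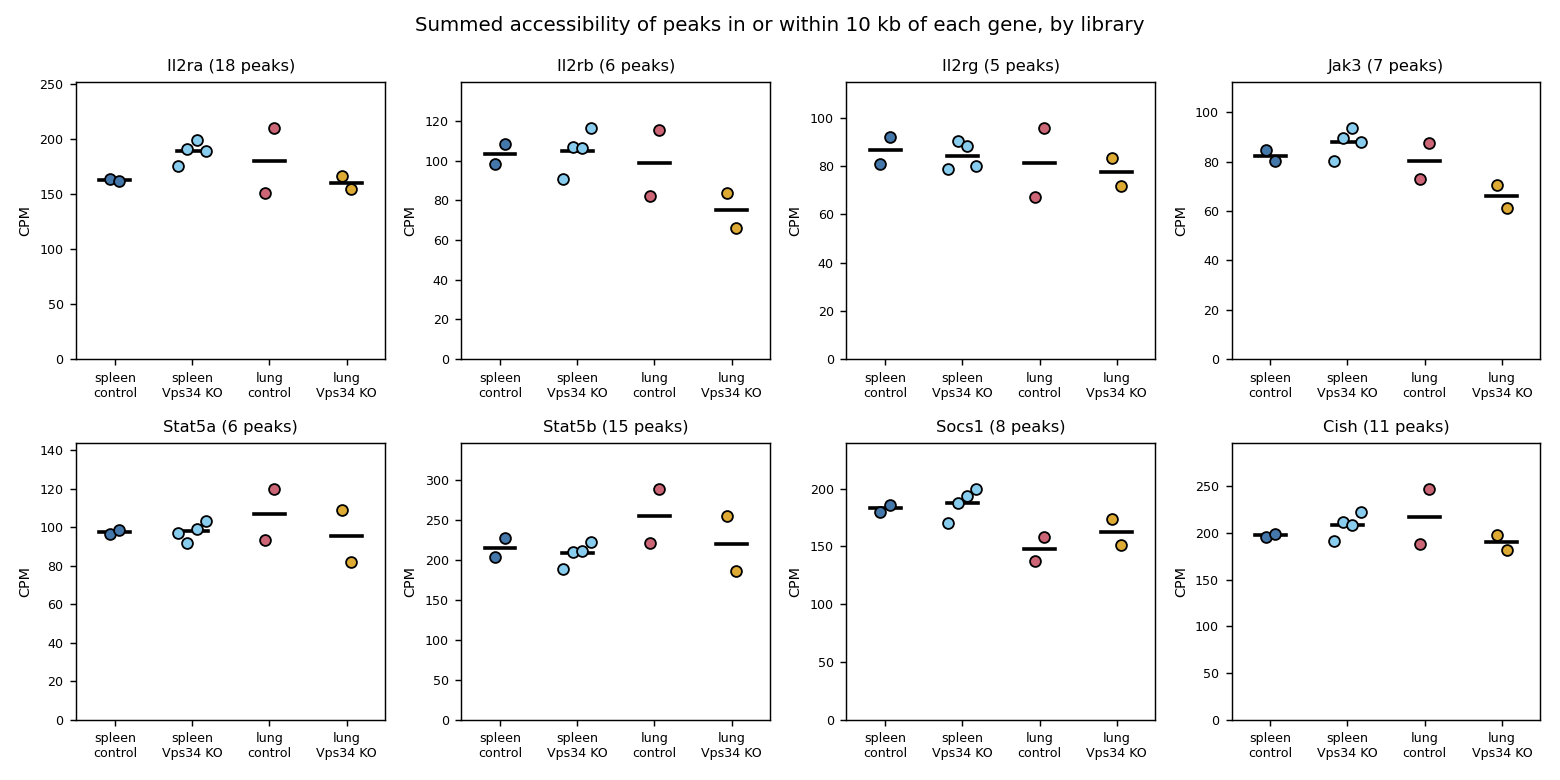
Summed CPM of the peaks in or within 10 kb of each member gene (y axis, from 0), with 1 point per library and a line at the mean of each of the 4 groups (x axis). Points of the groups overlap in most panels, and for Socs1 both lung controls (137 and 159 CPM) lie below all 6 spleen libraries.

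For Il2ra (chr2:11642807-11693193, + strand), 18 peaks summed to 164 and 162 CPM in spleen controls and to 175, 191, 199.5 and 189 CPM in Vps34-deficient spleen Tregs. In lung they summed to 151 and 209.7 CPM in controls and to 166 and 154 CPM without Vps34. Each Vps34-deficient spleen library was thus above both spleen controls, while the lung groups overlapped. For the sum, the log2 fold change came to 0.22 ± 0.09 (SE) in spleen (adjusted p = 0.341, quasi-likelihood test of edgeR, Benjamini-Hochberg adjusted across genes) and -0.16 ± 0.11 in lung (adjusted p = 0.411), so neither passed the test. With the spleen libraries fitted alone, the spleen value of 0.21 passed (adjusted p = 0.0422).

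The accessibility of Il2ra was concentrated in the first part of the gene. The highest of its peaks lay in an intron 10.7 kb from the 5′ end (chr2:11653319-11653778), with 37.2 and 33.3 CPM in spleen controls and 35.1, 39.8, 40.2 and 40.1 CPM in Vps34-deficient spleen. It had 34.2 and 49.7 CPM in lung controls and 38.3 and 42.1 CPM without Vps34, so that the ranges overlapped in both tissues. The promoter peak (chr2:11642220-11642988) was about as high in spleen controls (19.1 and 21.6 CPM) as in lung controls (14.0 and 24.2 CPM), and lower in both Vps34-deficient lung libraries (17.4 and 13.3 CPM) than in the Vps34-deficient spleen libraries (18.9 to 25.5 CPM), a difference that did not pass the test (log2 fold change -0.43, adjusted p = 0.113 by the edgeR quasi-likelihood test). Mean levels over the 10 libraries fell away to 0.507 CPM at 30.3 kb and 1.92 CPM at 52.8 kb, beyond the 3′ end.

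**Figure D2:**
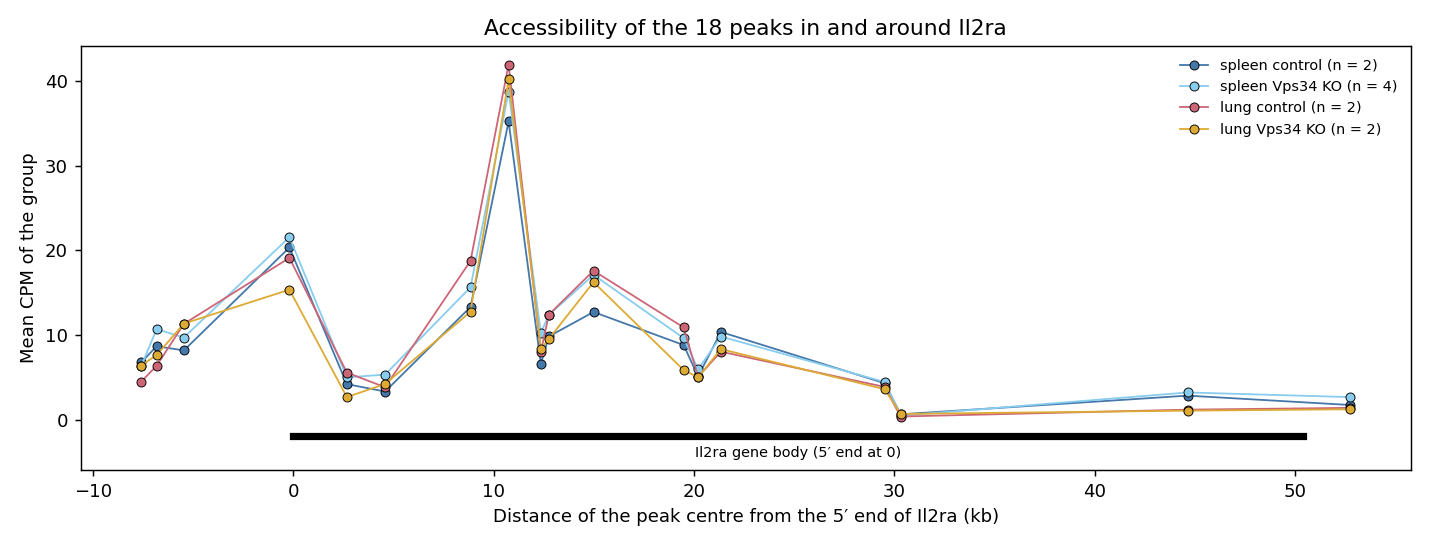
Mean CPM per group (y axis) of the 18 Il2ra peaks against the distance of the peak centre from the 5′ end of the gene in kb (x axis), with the gene body as a black bar. The profile has a promoter peak and a summit at 10.7 kb in all 4 groups, and the Vps34-deficient lung group is lowest at 19.5 kb.

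At 19.5 kb into Il2ra, an intronic peak (chr2:11662109-11662461) closed in lung Tregs without Vps34. It had 10.2 and 11.6 CPM in lung controls and 4.71 and 6.99 CPM in Vps34-deficient lung Tregs, with 9.76 and 7.85 CPM in spleen controls and 8.94 to 10.4 CPM in Vps34-deficient spleen. The 2 Vps34-deficient lung libraries were the lowest of the 10, and the spleen groups overlapped. The log2 fold change in lung was -0.94 ± 0.24 (adjusted p = 0.0214, edgeR quasi-likelihood test), and lung was below spleen among Vps34-deficient libraries by -0.68 ± 0.21 (adjusted p = 0.0265). At no Il2ra peak did the genotype effects of the 2 tissues differ by the same test (smallest adjusted p = 0.420), so the closing is not shown to be particular to lung. The lung genotype call was lost without lung control replicate 2 (-0.80, adjusted p = 0.174), without lung Vps34-deficient replicate 1 (-0.59, adjusted p = 0.263) and with the lung libraries fitted alone (-0.93, adjusted p = 0.147), and the tissue call without lung Vps34-deficient replicate 1 (-0.35, adjusted p = 0.408) and without spleen control replicate 2 (-0.62, adjusted p = 0.0512). Each of these 2 calls held under 7 of 9 other settings.

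A second intronic peak, 8.84 kb from the 5′ end (chr2:11651451-11651842), was higher in lung than in spleen controls. Its values were 13.8 and 12.8 CPM in spleen controls and 16.2 and 21.4 CPM in lung controls, against 13.6 and 11.9 CPM in Vps34-deficient lung and 13.2 to 18.2 CPM in Vps34-deficient spleen. The lung controls lay above both other pairs (spleen controls and Vps34-deficient lung). The tissue difference in controls was 0.58 ± 0.19 on the log2 scale (adjusted p = 0.039, edgeR quasi-likelihood test), and was called under 2 of 9 other settings and with 2 of the 10 libraries left out, with values from 0.26 (without lung control replicate 2) to 0.68. Loss of Vps34 in lung gave -0.59 ± 0.20 (adjusted p = 0.0854), which did not pass. The weakest of the called Il2ra peaks lay 44.6 kb into the gene (chr2:11687180-11687713), with 3.03 and 2.62 CPM in spleen controls, 2.23 to 4.16 CPM in Vps34-deficient spleen, 1.06 and 1.27 CPM in lung controls and 1.46 and 0.635 CPM in Vps34-deficient lung. It was lower in lung than in spleen without Vps34 (-1.50 ± 0.42, adjusted p = 0.0137), a call that held under 7 of 9 other settings and was lost without lung Vps34-deficient replicate 2 (-1.01, adjusted p = 0.202), and rests on as few as 6 counts in a library.

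The central 300 bases of the peak that closed in lung and of the 8.84 kb peak are shown because both peaks were called, and were searched for the STAT element TTCNNNGAA and the AP-1 element TGANTCA. Both elements read the same on both strands, and both are in capitals in every sequence below (GRCm38, + strand). The window of the 8.84 kb peak holds 2 of each. That of the peak that closed holds neither, and 1 STAT element lies in the rest of that peak, outside the window. At least 2 STAT elements were present in 0.595% of the 97250 peaks read in this way.
Il2ra intron at 8.84 kb, chr2:11651497-11651796: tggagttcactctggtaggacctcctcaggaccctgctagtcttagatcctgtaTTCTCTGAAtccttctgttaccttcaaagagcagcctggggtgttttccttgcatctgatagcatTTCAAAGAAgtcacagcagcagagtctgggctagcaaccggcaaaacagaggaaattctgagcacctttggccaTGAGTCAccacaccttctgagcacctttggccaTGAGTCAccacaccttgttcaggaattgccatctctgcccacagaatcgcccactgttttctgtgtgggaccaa
Il2ra intron at 19.5 kb, chr2:11662136-11662435: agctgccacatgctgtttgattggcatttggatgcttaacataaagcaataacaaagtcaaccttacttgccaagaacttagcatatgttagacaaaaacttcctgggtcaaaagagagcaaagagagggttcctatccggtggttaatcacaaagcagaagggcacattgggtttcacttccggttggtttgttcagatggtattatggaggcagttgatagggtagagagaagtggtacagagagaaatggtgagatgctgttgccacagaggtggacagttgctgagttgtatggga

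Il2rb (chr15:78479256-78495271, - strand), the signalling chain shared with the IL-15 receptor, had the call with the smallest p among the members for loss of Vps34. Its 6 peaks summed to 98.4 and 109 CPM in spleen controls and 90.9, 107, 106 and 116 CPM in Vps34-deficient spleen, which overlapped. In lung they summed to 82.3 and 116 CPM in controls, compared with 83.9 and 66.3 CPM without Vps34, which overlapped too. Summed over the locus, lung gave a log2 fold change of -0.39 ± 0.14 (adjusted p = 0.129, edgeR quasi-likelihood test), which did not pass, and it was 0.03 ± 0.12 in spleen. The lung value ran from -0.57 to -0.11 on leaving out 1 library.

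Within Il2rb, 5 of the 6 peaks had a negative log2 fold change in lung (median -0.28), and 1 was called, 1.52 kb from the 5′ end (chr15:78493513-78493988), which covers an alternative first exon and is intronic to the longer transcript. It had 27.0 and 37.3 CPM in lung controls and 18.2 and 13.5 CPM in Vps34-deficient lung Tregs. Spleen controls had 23.6 and 29.8 CPM, compared with 22.8, 23.7, 26.4 and 27.6 CPM without Vps34. The Vps34-deficient lung libraries were the lowest of the 10, and the spleen groups overlapped. Its log2 fold change was -1.04 ± 0.18 in lung (adjusted p = 0.00122, edgeR quasi-likelihood test) and -0.08 ± 0.15 in spleen (adjusted p = 0.874). The difference between these 2 effects, -0.96 ± 0.24, did not pass the test over all peaks (adjusted p = 0.350), so the effect is not shown to be particular to lung. The lung call held under all 9 other settings and was lost without lung control replicate 2 (-0.74, adjusted p = 0.0589). Lung was also below spleen without Vps34 (-0.60 ± 0.16, adjusted p = 0.0115), a call that held under 8 of 9 other settings and was lost without lung Vps34-deficient replicate 2 (-0.35, adjusted p = 0.255). An uncalled peak 15.7 kb from the 5′ end (chr15:78479458-78479721) had 4.25 and 6.14 CPM in lung controls, then 2.92 and 3.18 CPM without Vps34, which did not overlap (-0.81 ± 0.32, adjusted p = 0.149). Nor did its spleen groups, with 4.81 and 5.51 CPM in controls against 2.85 to 4.31 CPM without Vps34 (-0.56 ± 0.25, adjusted p = 0.302 by the edgeR quasi-likelihood test). This peak falls outside the rule by which peaks were named, and as neither difference passed, no loss is shown.

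The main promoter peak of Il2rb (chr15:78494920-78495461), its highest by mean, was not called in lung. It had 26.8 and 43.5 CPM in lung controls and 33.5 and 27.9 CPM without Vps34, which overlapped (log2 fold change -0.23 ± 0.18, adjusted p = 0.501 by the edgeR quasi-likelihood test). At this peak, spleen controls had 40.6 and 43.8 CPM, compared with 34.6 to 48.8 CPM without Vps34. The sequence of the 1.52 kb peak is shown, outside its untranslated exon, because it carried the genotype call with the smallest p, and the stretch holds neither element. The part of the peak that is not shown holds 1 AP-1 element, which lies in its central 300 bases.
Il2rb peak at 1.52 kb, chr15:78493757-78493988: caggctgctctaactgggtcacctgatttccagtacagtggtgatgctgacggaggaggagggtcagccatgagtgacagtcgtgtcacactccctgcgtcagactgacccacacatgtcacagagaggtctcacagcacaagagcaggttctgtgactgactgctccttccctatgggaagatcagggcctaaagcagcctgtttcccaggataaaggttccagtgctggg

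Il2rg (chrX:101264378-101268255, - strand), the gamma chain common to the receptors of IL-2, IL-4, IL-7, IL-9, IL-15 and IL-21, had no called peak in any comparison. Its 5 peaks summed to 81.0 and 92.3 CPM in spleen controls, 78.9, 90.4, 88.2 and 80.0 CPM in Vps34-deficient spleen, 67.4 and 95.7 CPM in lung controls and 83.3 and 72.0 CPM in Vps34-deficient lung. All 4 groups overlapped. The log2 fold change of the sum was -0.06 ± 0.13 in lung and -0.03 ± 0.11 in spleen (adjusted p = 0.813 and 0.946, edgeR quasi-likelihood test). Its promoter peak (chrX:101268014-101268776), also its highest by mean, had 25.8 and 30.7 CPM in spleen controls and 20.8 and 34.0 CPM in lung controls, and the smallest p for loss of Vps34 in lung was at a peak 5.31 kb upstream (chrX:101273414-101273721; log2 fold change 0.41 ± 0.34, adjusted p = 0.533), with 4.25 and 2.82 CPM in controls, compared with 5.85 and 3.39 CPM without Vps34.

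Jak3 (chr8:71676296-71690575, + strand), the kinase bound to the gamma chain, had a lower summed level in lung. Its 7 peaks summed to 84.7 and 80.2 CPM in spleen controls and 80.2, 89.8, 93.5 and 88 CPM in Vps34-deficient spleen, and to 73.0 and 87.6 CPM in lung controls and 70.7 and 61.4 CPM in Vps34-deficient lung. Both Vps34-deficient lung libraries were below every other library, and the lung controls overlapped the spleen. Averaged over genotypes, the lung-to-spleen log2 fold change was -0.21 ± 0.08 (adjusted p = 0.048, edgeR quasi-likelihood test), a call that held under 4 of 12 other settings and with 3 of the 10 libraries left out, with values from -0.27 to -0.11 (without lung Vps34-deficient replicate 2, adjusted p = 0.306). Loss of Vps34 in lung gave -0.27 ± 0.10 (adjusted p = 0.145, edgeR quasi-likelihood test) and in spleen 0.09 ± 0.09 (adjusted p = 0.736), and the difference between them, -0.37 ± 0.13, did not pass either (adjusted p = 0.668). The lung value ran from -0.38 to -0.13 when 1 library was left out.

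The Jak3 promoter peak (chr8:71676164-71676804), the highest of the locus by its mean over the 10 libraries but in 5 of them below the B3gnt3 peak described next, had 21.8 and 19.4 CPM in spleen controls, 28, 22.5, 25.5 and 28 CPM in Vps34-deficient spleen, 22.3 and 22.9 CPM in lung controls and 21.8 and 16.9 CPM in Vps34-deficient lung. Every Vps34-deficient spleen library was above both spleen controls, but the log2 fold change of 0.33 ± 0.14 did not pass (adjusted p = 0.252, edgeR quasi-likelihood test). The called peaks of this locus lay in neighbouring genes. One in Unc13a, 4.95 kb upstream (chr8:71671267-71671420), had 0.417 to 1.29 CPM in Vps34-deficient spleen and 2.27 and 3.18 CPM in Vps34-deficient lung (log2 fold change 1.53 ± 0.44, adjusted p = 0.0164), with as few as 6 counts in a library, and its call was lost without lung Vps34-deficient replicate 2 (1.34, adjusted p = 0.144). The other, in B3gnt3 (chr8:71692442-71693065), had 23.9 and 21.2 CPM in spleen controls, 19.99 and 26.8 CPM in lung controls, 19.9 to 27.6 CPM in Vps34-deficient spleen and 18 and 15.2 CPM in Vps34-deficient lung (-0.53 ± 0.16, adjusted p = 0.0219), and was called under 7 of 9 other settings and with 5 of the 10 libraries left out, with values from -0.67 to -0.36 (without lung Vps34-deficient replicate 2, adjusted p = 0.275).

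Stat5a (chr11:100859351-100885169, + strand) and Stat5b (chr11:100780731-100850724, - strand) lie head to head and encode the 2 STAT5 proteins. Summed levels for Stat5a (6 peaks) were 96.7 and 98.5 CPM in spleen controls, 97.3, 91.7, 99.1 and 103 CPM in Vps34-deficient spleen, 93.7 and 119.8 CPM in lung controls and 109 and 82.0 CPM in Vps34-deficient lung. For Stat5b (15 peaks) they were 203 and 228 CPM, then 189, 210.2, 211 and 222 CPM, then 221 and 288 CPM, then 255 and 186 CPM, in the same order of groups. Control and Vps34-deficient libraries overlapped in both tissues for both genes. In lung, the log2 fold change was -0.15 ± 0.12 for Stat5a (adjusted p = 0.502, edgeR quasi-likelihood test) and -0.20 ± 0.13 for Stat5b (adjusted p = 0.386). In spleen it was 0.01 ± 0.10 and -0.04 ± 0.11.

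The highest peak of both loci was in Stat5a, 1.06 kb from its 5′ end (chr11:100860128-100860692), and counts for both genes. It had 54.8 and 57.1 CPM in spleen controls and 50.7 to 54.4 CPM in Vps34-deficient spleen, and 58.7 and 79.3 CPM in lung controls and 63.3 and 45.3 CPM in Vps34-deficient lung. The lung genotype difference of -0.37 ± 0.14 did not pass (adjusted p = 0.136, edgeR quasi-likelihood test), and the 2 lung groups overlapped. On leaving out 1 library, this difference ran from -0.56 to -0.071. The Stat5b promoter peak (chr11:100850152-100850810) varied little, with 16.1 to 21.0 CPM over the 10 libraries.

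**Figure D3:**
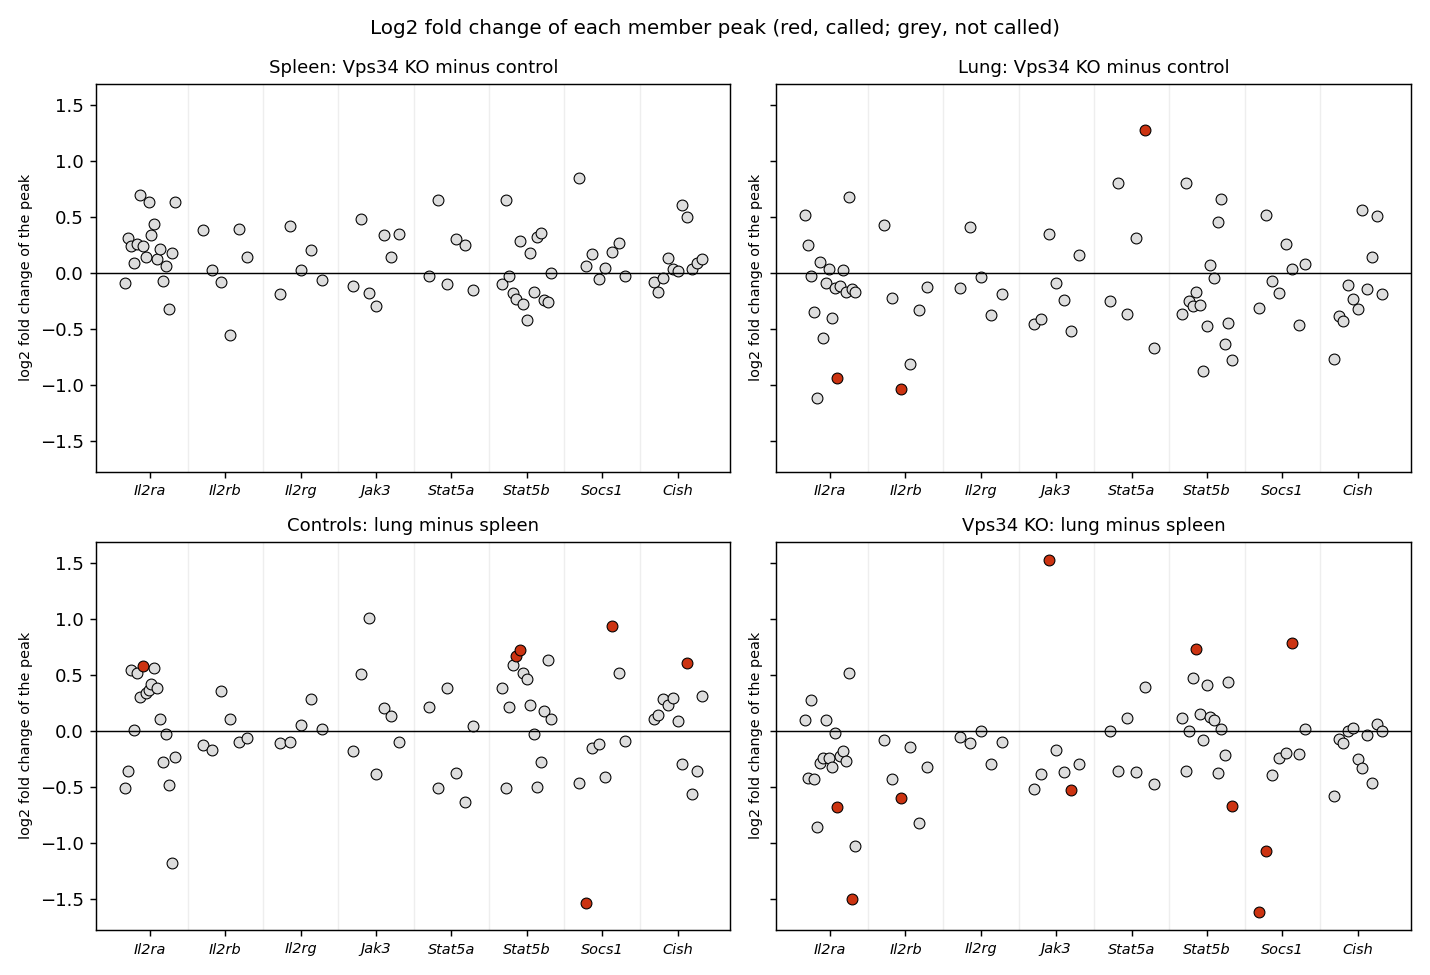
Log2 fold change (y axis) of every member peak, ordered along each gene in its direction of transcription (x axis), in the 4 comparisons; the 3 peaks near both Stat5a and Stat5b are drawn under each. No peak was called in spleen (upper left), and 3 were called for loss of Vps34 in lung (upper right), in red.

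Past the 3′ end of Stat5a, a peak in an intron of the neighbouring gene Stat3, which encodes another STAT protein, opened in lung Tregs without Vps34 (chr11:100891630-100892063). It had 3.19 and 3.67 CPM in lung controls and 9.91 and 6.99 CPM in Vps34-deficient lung. Spleen controls had 5.17 and 6.20 CPM, compared with 7.93, 4.89, 6.50 and 7.61 CPM without Vps34. The 2 lung controls were the lowest of the 10 libraries, and the spleen groups overlapped. The log2 fold change was 1.28 ± 0.29 in lung (adjusted p = 0.0109, edgeR quasi-likelihood test) and 0.25 ± 0.23 in spleen (adjusted p = 0.708), and their difference of 1.03 ± 0.37 did not pass (adjusted p = 0.529). The lung call was lost without lung Vps34-deficient replicate 1 (1.07, adjusted p = 0.110) and with the lung libraries fitted alone (1.27, adjusted p = 0.0699). The sequence is shown because this was the only member peak called higher without Vps34, and its central 300 bases hold neither element.
Stat3 intron peak near Stat5a, chr11:100891697-100891996: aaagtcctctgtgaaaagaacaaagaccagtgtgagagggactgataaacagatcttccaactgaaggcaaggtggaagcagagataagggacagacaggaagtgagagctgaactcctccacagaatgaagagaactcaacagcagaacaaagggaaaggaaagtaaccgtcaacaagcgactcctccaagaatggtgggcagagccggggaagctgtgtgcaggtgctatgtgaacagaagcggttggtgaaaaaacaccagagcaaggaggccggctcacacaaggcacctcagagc

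In Stat5b, an intronic peak was more accessible in lung than in spleen in both genotypes, and another in controls. The first, 4.62 kb from the 5′ end (chr11:100845839-100846368), had 20.8 and 23.6 CPM in spleen controls, 13.6, 19.9, 21.8 and 19.7 CPM in Vps34-deficient spleen, 30.0 and 36.5 CPM in lung controls and 34.3 and 25.6 CPM in Vps34-deficient lung. All 4 lung libraries were above all 6 spleen libraries. The tissue difference was 0.67 ± 0.18 in controls (adjusted p = 0.015, edgeR quasi-likelihood test) and 0.73 ± 0.16 without Vps34 (adjusted p = 0.00243), and both calls held under all 9 other settings. With 1 library left out, the first was lost without spleen control replicate 1 (0.47, adjusted p = 0.252), spleen control replicate 2 (0.71, adjusted p = 0.0513) or lung control replicate 2 (0.42, adjusted p = 0.197), and the second without lung Vps34-deficient replicate 1 (0.55, adjusted p = 0.0735).

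The other Stat5b peak, at 8.54 kb (chr11:100841984-100842389), had 7.13 and 9.37 CPM in spleen controls and 10.2 and 15.2 CPM in lung controls. Without Vps34 it had 9.39, 9.79, 9.07 and 11.6 CPM in spleen and 9.91 and 11.4 CPM in lung, which overlapped (0.15 ± 0.20, adjusted p = 0.679 by the edgeR quasi-likelihood test). Its tissue difference in controls, 0.72 ± 0.23 (adjusted p = 0.0357, edgeR quasi-likelihood test), was called under 5 of 9 other settings and with 4 of the 10 libraries left out, with values from 0.30 (without lung control replicate 2) to 0.89. A peak in the neighbouring gene Ghdc (chr11:100770578-100771201) was lower in lung than in spleen without Vps34, with 7.47 and 5.29 CPM against 8.07, 11.3, 11.1 and 12.1 CPM (-0.67 ± 0.23, adjusted p = 0.0485). Its call held under 7 of 9 other settings and with 3 of the 10 libraries left out, with values from -0.90 to -0.40 (without lung Vps34-deficient replicate 2, adjusted p = 0.423).

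Socs1 (chr16:10782240-10785536, - strand), which encodes an inhibitor of JAK kinases, showed the largest tissue difference of the 8 genes by p. Its 8 peaks summed to 179.9 and 186 CPM in spleen controls and 170.5, 187, 193 and 199 CPM in Vps34-deficient spleen, against 137 and 159 CPM in lung controls and 173 and 151 CPM in Vps34-deficient lung. Only 1 of the 4 lung libraries reached the spleen range. Averaged over genotypes, the lung-to-spleen log2 fold change was -0.21 ± 0.06 (adjusted p = 0.00779, edgeR quasi-likelihood test), which held under 11 of 12 other settings and was lost without lung Vps34-deficient replicate 2 (-0.17, adjusted p = 0.0537). Loss of Vps34 gave 0.14 ± 0.09 in lung (adjusted p = 0.371, edgeR quasi-likelihood test) and 0.04 ± 0.07 in spleen (adjusted p = 0.897), so no genotype effect passed. With 1 library left out, the lung value ran from 0.036 to 0.25.

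Within the Socs1 locus, 1 upstream peak accounted for the smallest p of any member peak. It lies 3.53 kb upstream of Socs1 (chr16:10788951-10789178) and 291 bp from the start of Tnp2, a sperm chromatin gene, and had 8.69 and 8.40 CPM in spleen controls and 8.21, 8.69, 8.39 and 10.3 CPM in Vps34-deficient spleen. In lung it had 2.76 and 2.82 CPM in controls, compared with 3.74 and 4.45 CPM without Vps34. All 4 lung libraries were below all 6 spleen libraries. The lung-to-spleen log2 fold change was -1.53 ± 0.26 in controls (adjusted p = 0.000294, edgeR quasi-likelihood test) and -1.08 ± 0.22 without Vps34 (adjusted p = 0.00161). Both calls held under all 9 other settings and without each of the 10 libraries, with values from -1.64 to -1.53 and from -1.16 to -0.89 on leaving out libraries. Loss of Vps34 in lung gave 0.52 ± 0.28, with the 2 groups apart, which did not pass (adjusted p = 0.309). The sequence is shown because of these calls, and it holds 1 STAT element near its end.
Socs1 upstream peak, chr16:10788951-10789178: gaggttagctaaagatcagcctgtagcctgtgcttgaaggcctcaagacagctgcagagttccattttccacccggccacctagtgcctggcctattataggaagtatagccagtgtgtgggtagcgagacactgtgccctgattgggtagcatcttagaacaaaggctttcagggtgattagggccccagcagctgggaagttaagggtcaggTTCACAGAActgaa

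The other Socs1 peaks did not move as one. The promoter peak (chr16:10784978-10785963), which had the highest mean of all 73 over the 10 libraries, had 73.3 and 77.4 CPM in spleen controls, 69.0 to 85.0 CPM in Vps34-deficient spleen, 48.3 and 58.7 CPM in lung controls and 73.3 and 56.7 CPM in Vps34-deficient lung. Both lung controls lay below both spleen controls (-0.41 ± 0.12, adjusted p = 0.0249, edgeR quasi-likelihood test), a difference below the log2 threshold of 0.5 used for calls. On leaving out 1 library it ran from -0.66 to -0.36, on both sides of that threshold. The lung genotype effect of this peak, which was not called, ran from 0.13 to 0.51. By contrast, a peak 3.45 kb from the 5′ end, downstream of the gene (chr16:10781956-10782218), was higher in all 4 lung libraries (7.65 and 9.24 CPM in controls, 9.26 and 8.36 CPM without Vps34) than in all 6 spleen libraries (3.44 to 6.18 CPM).

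That downstream peak gave a log2 fold change of 0.94 ± 0.27 in controls (adjusted p = 0.0186, edgeR quasi-likelihood test), lost without lung control replicate 2 (0.69, adjusted p = 0.164) or spleen control replicate 2 (0.58, adjusted p = 0.262) and with the control libraries fitted alone (0.91, adjusted p = 0.0643). Without Vps34 it gave 0.78 ± 0.23 (adjusted p = 0.0186), lost without spleen Vps34-deficient replicate 1 (0.63, adjusted p = 0.070) or lung Vps34-deficient replicate 1 (0.76, adjusted p = 0.109). Each of these calls held under 7 of 9 other settings. A weak peak 8.07 kb upstream in Prm2 (chr16:10793437-10793771) had 3.76, 3.43, 3.70 and 4.59 CPM in Vps34-deficient spleen and 0.975 and 1.48 CPM in Vps34-deficient lung (-1.62 ± 0.37, adjusted p = 0.00384), with 1.87 and 2.48 CPM in spleen controls and 1.91 and 1.13 CPM in lung controls. Its call was lost without lung Vps34-deficient replicate 1 (-1.27, adjusted p = 0.0903).

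**Figure D4:**
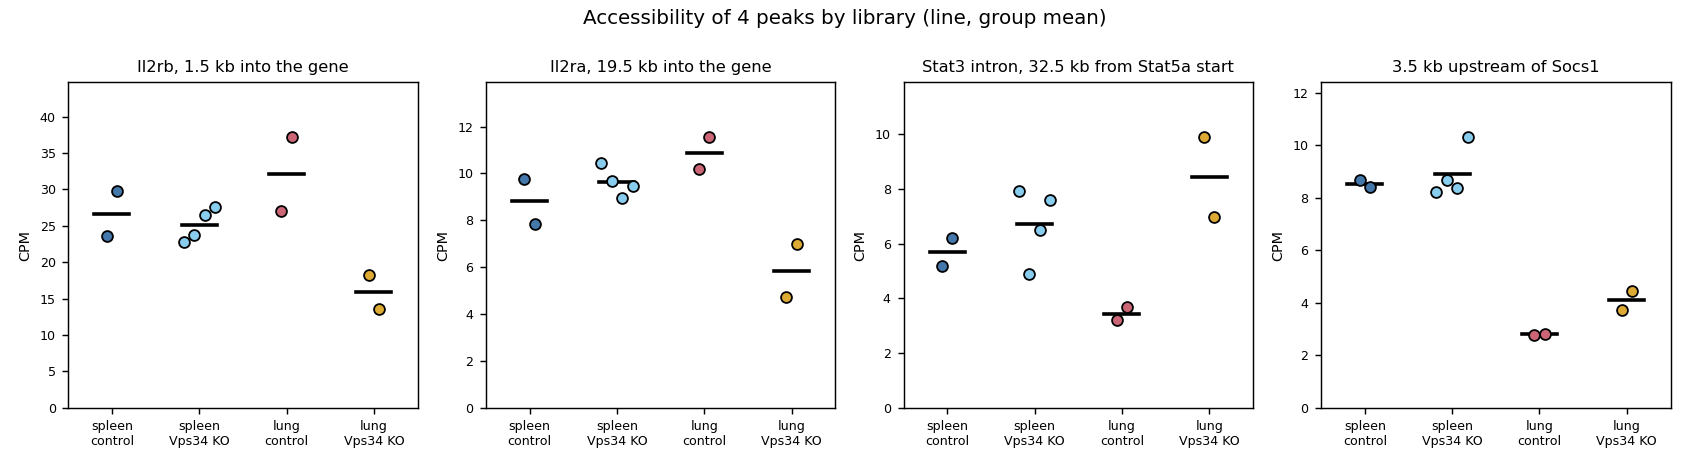
CPM by library (points) and group mean (lines) of 4 called peaks, with the groups on the x axis and CPM from 0 on the y axis. In the Il2rb and Il2ra peaks both Vps34-deficient lung libraries are the lowest of the 10, in the Stat3 intron both lung controls are, and upstream of Socs1 all 4 lung libraries lie below all 6 spleen libraries.

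Cish (chr9:107296026-107302784, + strand) encodes CIS, an SH2 protein induced by STAT5. Its 11 peaks summed to 196 and 199 CPM in spleen controls, 191, 212, 209 and 223 CPM in Vps34-deficient spleen, 188 and 247 CPM in lung controls and 198 and 182 CPM in Vps34-deficient lung. The groups overlapped in both tissues. Neither tissue passed, with a log2 fold change of -0.19 ± 0.10 in lung (adjusted p = 0.289, edgeR quasi-likelihood test) and 0.08 ± 0.08 in spleen (adjusted p = 0.777).

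The Cish promoter holds the densest run of STAT elements among the members. The central 300 bases of the peak just past the 5′ end (chr9:107296431-107296975) contain 4 of them, a number reached by 2 of the 97250 peaks read (0.00206%). Only stretches of 29 bases around each are shown, as the peak overlaps an untranslated exon, and the first 2 stretches and the last 2 overlap.
Cish element 1, chr9:107296649-107296677: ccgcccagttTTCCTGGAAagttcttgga
Cish element 2, chr9:107296660-107296688: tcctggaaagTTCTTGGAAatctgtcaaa
Cish element 3, chr9:107296754-107296782: aagcccgcggTTCTAGGAAgatgaggctt
Cish element 4, chr9:107296771-107296799: aagatgaggcTTCCGGGAAgggctgggac

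This peak was among the steadiest of the members. It had 17.3 and 18.5 CPM in spleen controls, 16.6, 20.3, 18.2 and 17.8 CPM in Vps34-deficient spleen, 21.7 and 19.9 CPM in lung controls and 19.7 and 16.0 CPM in Vps34-deficient lung. The lung groups did not overlap, yet the log2 fold change of -0.24 ± 0.17 did not pass (adjusted p = 0.459, edgeR quasi-likelihood test), and in spleen it was 0.03 ± 0.14. The peak over the start itself (chr9:107295569-107296310) had 21.0 to 30.9 CPM over the 10 libraries.

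The peak near Cish with the highest mean lies 6.31 kb upstream in Mapkapk3 (chr9:107289322-107290110). It had 46.5 and 53.3 CPM in lung controls and 37.0 and 38.3 CPM in Vps34-deficient lung, against 40.1 to 46.0 CPM in spleen. The lung groups did not overlap, and the log2 fold change of -0.43 ± 0.12 had an adjusted p of 0.0409 (edgeR quasi-likelihood test) but was below the threshold of 0.5. A peak 10.3 kb from the 5′ end (chr9:107305991-107306595) had 16.8 to 22.5 CPM in Vps34-deficient spleen and 18.5 and 18.4 CPM in Vps34-deficient lung, which overlapped. Its 2 spleen controls (13.8 and 14.1 CPM) were the lowest of the 10 libraries. Lung controls (17.0 and 23.0 CPM) were above them by 0.61 ± 0.18 (adjusted p = 0.0257, edgeR quasi-likelihood test). That call held under 8 of 9 other settings and with 4 of the 10 libraries left out, with values from 0.27 (without lung control replicate 2, adjusted p = 0.421) to 0.73.

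Counted over all 73 member peaks, loss of Vps34 in spleen gave 0 calls by the edgeR quasi-likelihood test, against 1.46% of all peaks (a call needs an adjusted p under 0.05 and a log2 fold change beyond 0.5 in size). DESeq2 gave 0 as well, 9 member peaks (12.3%, against 14.3% of all peaks) had an unadjusted p below 0.05, and the smallest adjusted p was 0.121. In lung, 1 member peak was called higher (1.22% of all peaks) and 2 lower (3.74% of all peaks), shares near those of the whole table in that fit, and 18 (24.7%, against 20.3% of all peaks) had an unadjusted p below 0.05. The median log2 fold change of the members was 0.12 in spleen, against 0.05 over all peaks, and -0.17 in lung, against 0.02. Of the 73 peaks, 47 had a positive value in spleen and 23 in lung. The lung count was 9 (1 higher and 8 lower) without lung control replicate 1, where 5.16% of all peaks were called higher and 4.08% lower. It was 2 without lung control replicate 2 (1.56% of all peaks) or without lung Vps34-deficient replicate 1 (1.97%), and 1 with the lung libraries fitted alone (2.01%).

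Between tissues, 5 member peaks were called higher in lung controls than in spleen controls (11.8% of all peaks) and 1 lower (3.53% of all peaks). Among Vps34-deficient libraries, 3 were higher in lung (12.4% of all peaks) and 7 lower (4.72% of all peaks). The median over the members was 0.11 in controls, against 0.04 over all peaks, and -0.21 without Vps34, against -0.03. The count in controls was 3 without spleen control replicate 1 (4.88% of all peaks) or without spleen Vps34-deficient replicate 1, 2 or 3 (14.8%, 14.0% and 14.9%), and 1 without spleen control replicate 2 (9.17%). Among Vps34-deficient libraries it was 6 without lung Vps34-deficient replicate 1 (11%). The difference between the genotype effects of the 2 tissues was called at 0 member peaks (0.0% of all peaks) by edgeR and by DESeq2, with 14 (19.2%, against 7.28% of all peaks) at an unadjusted p below 0.05. Its median over the members was -0.24, against -0.08 over all peaks.

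At the level of summed counts, 0 of the 8 genes passed for loss of Vps34 in spleen (0.655% of all genes) or in lung (4.74% of all genes) by the edgeR quasi-likelihood test or DESeq2, with 1 and 2 genes at an unadjusted p below 0.05, a level reached by 12.1% and 21.1% of all genes. Averaged over tissues, 0 were higher (4.18% of all genes) and 0 lower (4.06% of all genes) by both tools, with 0 at an unadjusted p below 0.05 (24.4% of all genes). Without lung control replicate 1, 4 of the 8 were called lower in lung, where 6.15% of all genes were lower and 7.42% higher in the same fit. For the tissue effect averaged over genotypes, edgeR called 0 higher (18.5% of all genes) and 2 lower (17.0% of all genes), Jak3 and Socs1. The DESeq2 Wald test called Stat5b higher in lung (0.22, adjusted p = 0.0401), where 20.4% of all genes were higher. It did not call Jak3 (-0.18, adjusted p = 0.0849). The edgeR count changed when libraries were left out in turn. The genotype-by-tissue difference was called for 0 genes (0.0% of all genes) by both tools, with 3 at an unadjusted p below 0.05 (6.5% of all genes), and for 1 by edgeR without lung control replicate 1 (0.225% of all genes). Without lung control replicate 2, 1 gene was called higher for the genotype effect averaged over tissues (2.23% of all genes).

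The STAT element was present in the central 300 bases of 11 of the 73 member peaks (15.1%), against 9.3% of all peaks. By gene these were 4 of the 18 peaks of Il2ra, 2 of 6 of Il2rb, 1 of 15 of Stat5b, 2 of 8 of Socs1 and 2 of 11 of Cish, and none of Il2rg, Jak3 or Stat5a. The AP-1 element was present in 13.7% of the member peaks and 13% of all peaks. A match describes the letters of the window and does not show that a factor binds there.

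Of 39 other genes of the pathway, loss of Vps34 lowered the summed accessibility of 1 (2.56%) in spleen, where 0.568% of all genes were lower. In lung 4 (10.3%) were lower and 2 (5.13%) higher, against 3.3% and 1.44% of all genes. Il2, which encodes the ligand, was lower in both tissues. Its 2 peaks summed to 8.65 and 8.95 CPM in spleen controls and 5.49, 5.02, 4.60 and 4.31 CPM in Vps34-deficient spleen, and to 13.1 and 12.8 CPM in lung controls and 6.09 and 6.14 CPM in Vps34-deficient lung. Control and Vps34-deficient libraries did not overlap in either tissue. Loss of Vps34 gave a log2 fold change of -0.85 ± 0.18 in spleen (adjusted p = 0.0336, edgeR quasi-likelihood test) and -1.07 ± 0.22 in lung (adjusted p = 0.00973).

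In lung, 2 more cytokine genes and 1 effector gene were lower without Vps34. Il4, which signals through the same gamma chain, had 24.1 and 38.7 CPM in controls, compared with 17.9 and 17.4 CPM in Vps34-deficient lung (-0.83 ± 0.19, adjusted p = 0.0199, edgeR quasi-likelihood test). Il9, another ligand of a gamma chain receptor, had 43.2 and 43.9 CPM against 28.8 and 25.8 CPM (-0.66 ± 0.14, adjusted p = 0.0145). Gzmb, a STAT5 target that encodes the protease granzyme B, has 1 peak, with 7.44 and 11.1 CPM against 3.74 and 2.96 CPM (-1.46 ± 0.30, adjusted p = 0.0106), and was not called in spleen, where it had 5.88 and 5.51 CPM against 2.36 to 3.61 CPM (-0.95 ± 0.25, adjusted p = 0.0993). In each of these, the Vps34-deficient lung libraries lay below both lung controls.

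Genes that rose in lung without Vps34 were Bcl2, a STAT5 target that protects from cell death, and Sos1, which encodes an exchange factor that activates Ras. Bcl2, with 40 peaks, summed to 278 and 286 CPM in lung controls and 366 and 318 CPM in Vps34-deficient lung (0.29 ± 0.07, adjusted p = 0.0176, edgeR quasi-likelihood test), and to 372 and 378 CPM against 421, 420.0, 428 and 434 CPM in spleen (0.19 ± 0.06, adjusted p = 0.156). Sos1 had 207 and 200.1 CPM in lung controls and 246 and 244 CPM without Vps34 (0.28 ± 0.08, adjusted p = 0.0423). Averaged over tissues, Il15, the ligand that shares the beta and gamma chains, rose too (0.53 ± 0.12, adjusted p = 0.0101), with 67.6 and 87.9 CPM in spleen controls, 91.9 to 123 CPM in Vps34-deficient spleen, 216 and 129 CPM in lung controls and 232 and 248 CPM in Vps34-deficient lung. The groups in each tissue did not overlap for Bcl2 or Il15, nor for Sos1 in lung.

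**Figure D5:**
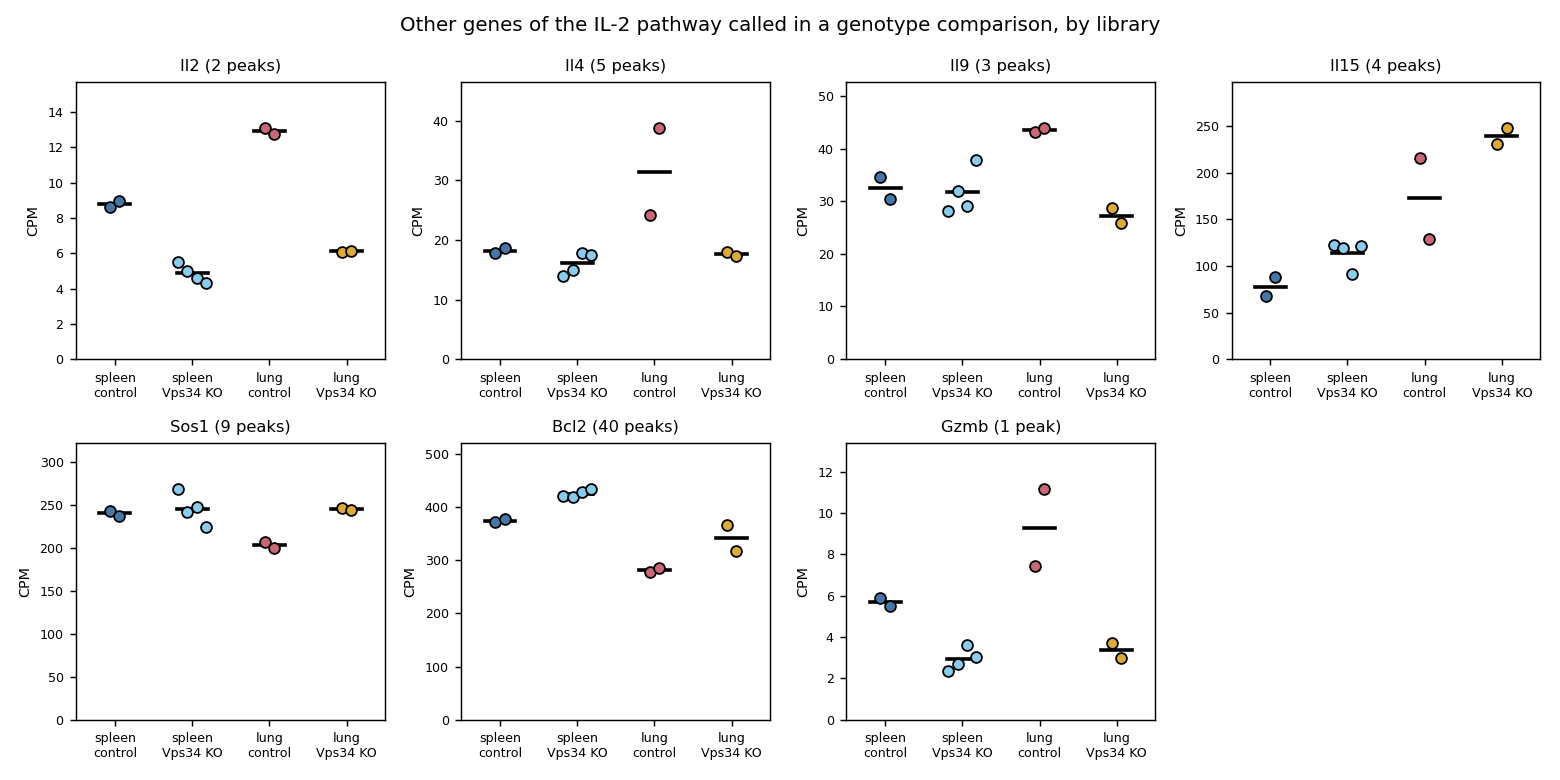
Summed CPM by library (y axis, from 0) of the 7 other pathway genes called in a genotype comparison, with group means as lines and the 4 groups on the x axis. Il2 and Gzmb are lower in Vps34-deficient Tregs than in controls of the same tissue in every library, and Bcl2 and Il15 are higher in every library.

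Between tissues, 8 of the 39 pathway genes (20.5%) were more accessible in lung and 9 (23.1%) less, averaged over genotypes, shares near the 18.5% and 17.0% of all genes. Higher in lung were the cytokine genes Il15 (1.15 ± 0.11), Il2, Il4 and Il7, the receptor gene Il7r (0.34 ± 0.06), Stat3, Gab2 and Socs3 (0.34 ± 0.07), all as log2 fold changes that passed the edgeR quasi-likelihood test. Among those lower in lung were Il21, the receptor genes Il15ra (-0.42 ± 0.12) and Il21r (-0.37 ± 0.06), Jak1 (-0.13 ± 0.04), Pik3r1, Ikzf2, Bcl2 (-0.32 ± 0.04) and Osm. The interaction of genotype and tissue was called for none of the 39 by that test.

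Markers of effector Tregs moved with these comparisons, and the part of cell states and of other cells in the results was not tested. Of 8 effector Treg genes, 4 were lower without Vps34 in spleen (0.568% of all genes) and 6 in lung (3.3% of all genes) by the edgeR quasi-likelihood test. Their summed level was 595 to 609 CPM in spleen controls, 476 to 509.5 CPM in Vps34-deficient spleen, 698 to 867 CPM in lung controls and 480.2 to 484 CPM in Vps34-deficient lung. The list includes Klrg1 and Il1rl1, at which the study reported altered accessibility in these data. The myeloid list summed to 157 to 172 CPM in lung controls and 119 to 126 CPM in Vps34-deficient lung, with 2 of its 5 tested genes lower (Cebpa and Itgam), against 3.3% of all genes. In spleen it summed to 149.4 to 156 CPM in controls and 130.3 to 146 CPM without Vps34, with 0 called, and Csf1r was higher in lung averaged over genotypes (1.64 ± 0.41). Markers of lung epithelium and endothelium summed to 209 to 229 CPM in spleen, 255 to 285 CPM in lung controls and 218 to 234 CPM in Vps34-deficient lung. Of these 7 genes, 3 were higher in lung averaged over genotypes (Cdh5, Nkx2-1 and Epcam), against 18.5% of all genes. The endothelial gene Pecam1 was lower without Vps34 in lung (-0.41 ± 0.11, adjusted p = 0.0405 by the edgeR quasi-likelihood test), against 3.3% of all genes. Of 6 resting Treg genes (such as Ccr7 and Tcf7), 0 were called for loss of Vps34 in spleen (0.655% of all genes) or lung (4.74% of all genes), and 1 (Satb1) was higher averaged over tissues (4.18% of all genes). Their summed level was 1523 to 1586 CPM in spleen controls, 1559 to 1973 CPM in Vps34-deficient spleen, 1536 to 1705 CPM in lung controls and 1606 to 1880.1 CPM in Vps34-deficient lung. Of the 8 Treg identity genes, Trac was called lower without Vps34 in lung (-0.46 ± 0.12, adjusted p = 0.0318, edgeR quasi-likelihood test), against 3.3% of all genes. For B cells the sums were 213 to 233 CPM and for CD8 T and NK cells 126 to 168 CPM over the 10 libraries, and no marker of either list was called for loss of Vps34 in spleen or lung. Averaged over tissues, Cd8a was higher and Gzma lower without Vps34. Averaged over genotypes, Ebf1, Cd79b, Blk, Klrb1c and Klrd1 were higher in lung and Cd79a lower. The B cell gene Ms4a1, the myeloid genes Adgre1 and Lyz2 and the NK cell gene Ncr1 were not among the genes tested.

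The genes whose summed accessibility followed that of Il2ra most closely over the 10 libraries, by the root mean square difference of centred log2 CPM, were Havcr2 (0.0513), Endov (0.0643) and Srpk1 (0.0658). For Jak3 they were Fbxw11 (0.0473), Tnip2 (0.0483) and Purb (0.0494), and for Socs1 Sema4f (0.0356), Nfrkb (0.0384) and the pseudogene 2610024D14Rik (0.0394).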

How the data were processed

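ATAC-seq libraries of sorted Tregs were grouped by the labels (2 control and 4 Vps34-deficient from spleen, 2 of each from lung; in the methods text the spleen numbers are swapped). The deposited values are raw counts per merged peak, with library totals of 9405823 to 22439699. The authors trimmed paired reads (cutadapt 1.9 in the submitters' processing notes), aligned them with BWA, removed duplicates with Picard, shifted read ends for the Tn5 cut, kept nucleosome-free fragments, called peaks per sample with MACS2 2.1.0.20150603, kept those found in enough replicates of a genotype, merged overlapping ones and counted reads with bedtools. Between 91.5% and 96.5% of the counts are even, since both mates were counted, so fragments are overstated and halved counts were an alternative. Replicates of a group differed by more than sampling noise in each pair, so all were kept as separate samples. Peaks covered 51.2% of 21951 coding gene starts on GRCm38 and 1.98% to 2.82% once positions were shifted, so GRCm38 with GENCODE M21 genes was used, although the methods text names an older build.

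Counts were filtered with filterByExpr, scaled with TMM and fitted with the quasi-likelihood test of edgeR 4.0.16 (R 4.3.3) as 4 groups over all 10 libraries, with Benjamini-Hochberg adjustment over all 97109 peaks or, for counts summed over the peaks within 10 kb of a gene, over all 34177 genes. The averages over tissue or genotype came from a model with both. Calls needed an adjusted p below 0.05 and, for peaks, an absolute log2 fold change above 0.5. Standard errors are the log2 fold change over the root of the F statistic. The procedure was tested on simulated data. Elements were searched in the GRCm38 genome of RefSeq in the central 300 bases of each peak. Promoter peaks lay within 1 kb of a start.

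The members and lists were chosen with earlier results of these data known. Named were each member's sum, its highest, promoter and called peaks (for Il2rg, the peak with the smallest p in lung), other pathway genes called for genotype, and the 3 genes most like Il2ra and each called member, leaving out genes within 100 kb. The uncalled Il2rb peak at 15.7 kb falls outside this rule. The sequences of the 2 Il2ra peaks and the Stat3 intron peak were chosen after their values were seen. Alternatives were scaling by library size or by the median of ratios, DESeq2 1.42.0, no count filter, halved counts, the replicate number as a block, the chromosome Y split as a covariate, compared groups alone, other windows and thresholds, and leaving out each library. The accessibility of Pik3c3 itself is not reported here, and Vps34 deletion was not checked.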

Additional observations from a re-analysis of the deposited data

Results flagged for a closer look

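The highest Il2ra peak, in an intron 10.7 kb from the 5′ end, had 35.1 CPM in spleen Vps34-deficient replicate 1, away from the other 3 libraries of that group (39.8, 40.1 and 40.2 CPM), with a gap of 0.932 of the range of the group, above the 95% critical value of Dixon's test for 4 libraries. It was the 1 such case among the 34 gene sums and peaks examined in this way, and chance gives about 1 in 20. Spleen controls had 37.2 and 33.3 CPM at this peak, so that the library lay within their range.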

How the results depend on the processing

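Counts of calls among the 73 peaks or 8 genes depended on the fit more than directions did, and the causes were not tested beyond the fewer libraries of some fits. The replicate numbers were not taken to pair the libraries, since the labels name no shared animal and same-numbered libraries deviated with correlations of -0.13 to 0.088. With the replicate number as a block, calls were 2 for loss of Vps34 in lung (2.86% of all peaks), 3 for tissue in controls (11.7%), 4 for tissue without Vps34 (6.95%) and 1 for gene sums by tissue (27.7% of all genes). With the numbers crossed in lung, chosen after seeing the data, tissue without Vps34 gave 5 calls (8.76%) and 1 gene sum, Il2rb, was called for loss of Vps34 in lung (adjusted p = 0.0171 by edgeR, 6.91% of all genes). With compared groups alone, calls were 1 for loss of Vps34 in lung (2.01%), 2 for tissue in controls (10.6%) and 1 for gene sums in spleen, Il2ra (adjusted p = 0.0422 by edgeR, 2.94% of all genes). With calls limited to an adjusted p under 0.01 and a log2 fold change beyond 1 in size, 1, 1 and 2 peaks passed for loss of Vps34 in lung, tissue in controls and tissue without Vps34, against 1.58%, 6.7% and 7.82% of all peaks. Gene sums by tissue gave 1 call with halved counts (35.7%), with a 2 kb window (30.4%) or by nearest start (36.5%), and 0 above a log2 fold change of 0.5 (17.0%). Leaving out 1 library gave 2 to 9 calls for loss of Vps34 in lung, 1 to 7 for tissue in controls, 6 to 12 for tissue without Vps34, and for gene sums 0 to 4 in lung, 0 to 1 averaged over tissues, 1 to 4 by tissue and 0 to 1 for the interaction. Shares of all peaks or genes called in these fits ran from 1.56% to 9.24%, 4.88% to 15.4%, 9.38% to 19.3%, 1.06% to 13.6%, 3.86% to 10.9%, 28.3% to 36.7% and 0.0% to 0.225%, in the same order.

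Signs turned for some lung values that were not called. The lung genotype effect of the Il2rg promoter peak was 0.00029 by DESeq2 and 0.0064 with the block, and that of the Il2rg sum 0.0056 in the gene body, 0.00454 within 2 kb and 0.013 by nearest start. Leaving out libraries (mostly lung control replicate 2) turned it to positive values for the Il2ra summit peak (-0.23 to 0.25), the promoter peaks of Il2rb (-0.42 to 0.22), Il2rg (-0.23 to 0.42) and Jak3 (-0.37 to 8.9e-06), and the sums of Il2ra (-0.34 to 0.11), Il2rg (-0.25 to 0.22), Stat5a (-0.37 to 0.052), Stat5b (-0.44 to 0.024) and Cish (-0.33 to 0.028). Depth limited the weak peaks, and among the members the lung genotype effect had its largest standard error, 1.11, at the Il2ra peak at 30.3 kb, with a mean of 0.507 CPM.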
